A study of Rattus norvegicus with 12 samples.

Results

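RNA-binding proteins that set how long messenger RNAs last were followed in rat hippocampal cultures: ZFP36, ZFP36L1, ELAVL3, CELF4, SLBP and RBMS1. They were chosen by name, with earlier results of the same arrays known, among them the response of 1 RBMS1 clone to activity at 60 min. Every spot whose symbol in the array annotation was one of these names was taken, which gave 11 spots of 9600 and 6 genes of 6284. ZFP36 and ZFP36L1 had 1 spot each, ELAVL3, CELF4 and SLBP 2 each and RBMS1 3. The spots carry human cDNA clones and were hybridized with rat RNA, so a clone is named here by its gene and its spot number on the membrane.

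The RNA came from hippocampal neurons of Sprague Dawley rat embryos (embryonic day 18.5), grown for 12 days on a layer of glia and measured on 12 nylon membranes, 1 per condition. All cultures, controls included, first spent 3 h in a cocktail that stops network activity (50 µM D-APV and 40 µM CNQX against glutamate receptors, 100 nM TTX against sodium channels). Block cultures stayed in this cocktail, and BiC/4AP cultures were made active with 50 µM bicuculline, which removes inhibition, and 500 µM 4-aminopyridine, which blocks potassium channels. Each was done without and with 25 µM actinomycin D (ActD), which stops transcription, and harvested at 5, 30 and 60 min. The labels give these times as treatment lengths, whereas the methods describe a 5 min stimulus with later harvests. By the methods ActD was already present in rinses and a pre-incubation before the stimulus. Exposure to ActD was then longer than the harvest time. RNA of several coverslips was pooled before labelling, and no condition had a second array. The methods describe the RNA of each condition as a pool of separate experiments. The 4 arrays of each time carry consecutive label numbers (69 to 72 at 5 min, 73 to 76 at 30 min and 77 to 80 at 60 min), so time and membrane series cannot be told apart.

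ZFP36, also called tristetraprolin, and its relative ZFP36L1 bind AU-rich elements in the 3′ ends of short-lived messages and recruit the enzymes that remove the poly(A) tail. Proteins of the ELAV family bind similar U-rich sequences and protect them, and the balance between both sets the life of many transcripts that neurons make on stimulation. In neurons such proteins also ride with messages into axons and dendrites, where decay and translation are controlled locally.

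Values are given on 2 scales. Raw intensity is the signal of the spot as deposited, and the normalized level is the log2 intensity after every array was brought to the same mean and SD. Ribosomal protein clones were on average 1.97 log2 units brighter than all spots under the annotation used, against -0.34 to 0.38 after shifting it by up to 6 positions. However, spots that carry the same accession agreed poorly (Spearman's rho 0.07 for mean log2 intensity over 131 pairs on the same arrays), as did the first 2 clones of a gene (rho 0.15 over 1488 genes). All 11 clones were brighter than the brightest of the 384 spots at the last position of each block of 25, none of which is annotated. This limit was low, at a mean log2 intensity of 3.45 against a median of 6.21 over all spots. RBMS1 spot 5418, at the 12.2nd percentile of all spots, was above it at 4.58, so most spots were. Neuronal marker clones lay above that limit too (11 of 11), and so did those of astrocytes (3 of 3), microglia (3 of 3), and fibroblasts and vessels (4 of 4), but only 1 of 2 of oligodendrocytes. Passing that limit is not read as presence of a cell type. None of these marker clones differed with activity or ActD at an adjusted p under 0.05 (limma). Of all 9600 spots, 0 and 1 did. At 30 against 5 min 4 of 11 neuronal, 2 of 3 astrocyte and 4 of 4 fibroblast and vascular clones were called. Of microglial and oligodendrocyte clones 0 of 3 and 0 of 2 were, against 44.5% of all spots. At 60 against 5 min the counts were 3, 2, 3, 0 and 0 in this order, against 36.6%. In such cultures fewer cells of a type and less RNA per cell cannot be told apart.

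No clone of the 11 passed the test for activity or for ActD, where 0% and 0.0104% of all spots did. The arrays of 5 min differed from those of 30 min for 4 of the 11 clones (36.4%) and from those of 60 min for 2 (18.2%). Over all spots these shares were 44.5% and 36.6%. RBMS1 spot 1246 was 1.12 log2 units higher at 30 min than at 5 min, and this rise passed the test in each of the 11 processing alternatives run. ELAVL3 spot 8746, RBMS1 spot 3693 and RBMS1 spot 5418 were lower at 30 min by 0.36 to 1.00. The call of spot 3693 was lost in 11 of 11 alternatives, whereas that of spot 8746 was kept in 7 of 11 and that of spot 5418 in 8 of 10. Differences between times were frequent over all spots too.

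**Figure D1:**
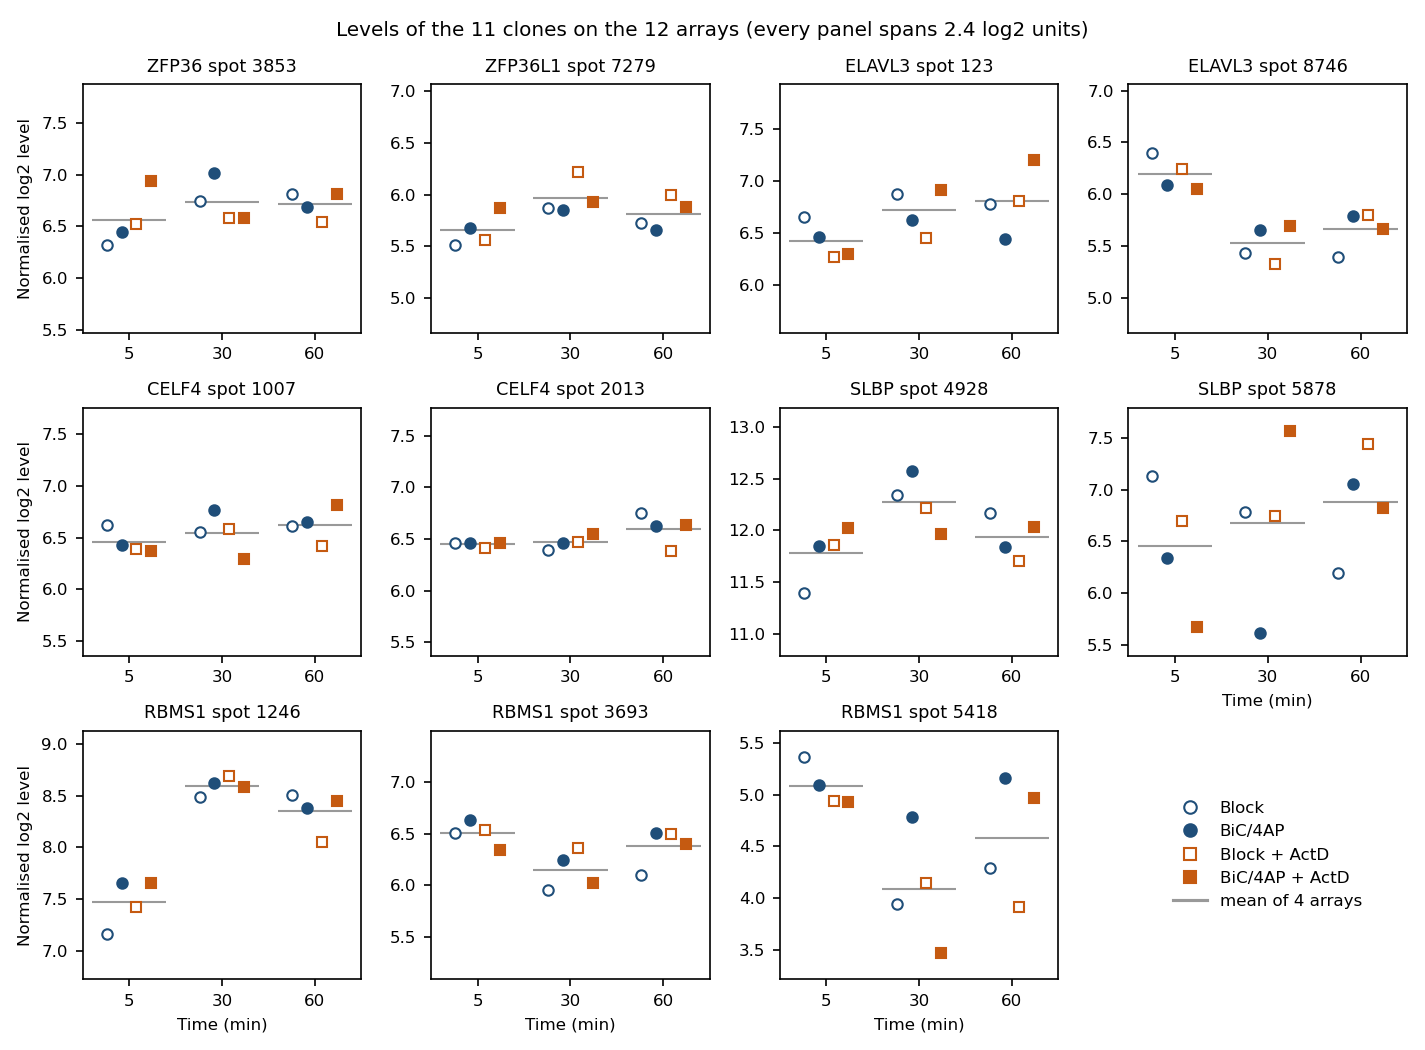
Normalized log2 level of each of the 11 clones (vertical axis, with the same span in every panel) at 5, 30 and 60 min (horizontal axis); points are single arrays (circles without ActD, squares with ActD, open Block, filled BiC/4AP) and grey lines the mean of the 4 arrays of a time. RBMS1 spot 1246 is the clone that rises after 5 min, ELAVL3 spot 8746 falls, and filled and open symbols are intermingled in most panels.

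ZFP36 is itself an immediate early gene in many cell types, with a message that is made and lost quickly. Its clone (spot 3853) kept a raw intensity between 83.6 and 122. At 5 min the normalized level was 6.32 in Block, 6.44 in BiC/4AP, 6.53 in Block + ActD and 6.93 in BiC/4AP + ActD. At 30 min it was 6.74 in Block and 7.02 in BiC/4AP, against 6.58 in both ActD conditions. At 60 min the levels were 6.81, 6.69, 6.54 and 6.81 in the same order. The active culture was higher in 5 of 6 pairs matched for time and ActD, but by only 0.16 ± 0.10 log2 units (SE, 6 pairs; 95% interval -0.06 to 0.38; limma, adjusted p = 0.90). With ActD the difference was -0.01 ± 0.14 over 6 pairs, 3 of them higher and 3 lower (adjusted p = 1.0 by limma). On the arrays of 60 min alone the ActD difference was -0.07, with an interval from -0.53 to 0.39. Silent and active cultures, and cultures without and with ActD, therefore overlapped for this clone.

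ZFP36L1, a paralogue with similar zinc fingers and the same class of targets, was read from spot 7279 (raw intensity 39.3 to 69.6). Its normalized level at 5 min was 5.51 in Block, 5.68 in BiC/4AP, 5.56 in Block + ActD and 5.87 in BiC/4AP + ActD. In the same order it was 5.88, 5.85, 6.22 and 5.93 at 30 min, then 5.73, 5.66, 5.998 and 5.88 at 60 min. The activity difference was 0.00 ± 0.10 (adjusted p = 0.99 by limma), with 2 pairs higher and 4 lower. With ActD the level was higher in 6 of 6 pairs, although the mean of 0.19 ± 0.09 did not pass the test (interval -0.02 to 0.40; limma, adjusted p = 1.0). How many of all spots had 6 of 6 pairs in 1 direction was not counted, so nothing is read from this. Between 5 and 30 min the level of ZFP36L1 was higher by 0.31 ± 0.12 in 4 of 4 sets. This difference missed the threshold (limma, adjusted p = 0.068). It passed in 6 of 11 alternatives, which gave 0.19 to 0.65, and the difference of 0.16 at 60 min passed in 3 of 11, which gave 0.07 to 0.49.

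ELAVL3, known as HuC, is a neuronal member of the ELAV family and so stands on the stabilizing side. Its 2 clones differed from each other. The clone at spot 123 had normalized levels at 5 min of 6.65 in Block, 6.46 in BiC/4AP, 6.27 in Block + ActD and 6.30 in BiC/4AP + ActD. They were 6.88, 6.63, 6.45 and 6.92 at 30 min, and 6.78, 6.44, 6.81 and 7.20 at 60 min. Without ActD the active culture was thus lower at each time, by 0.19, 0.25 and 0.34, whereas with ActD it was higher by 0.03, 0.47 and 0.40. The activity difference without ActD minus that with ActD was -0.56 ± 0.19 (interval -1.01 to -0.12), which did not pass the test over all spots (limma, adjusted p = 1.0). The later arrays were higher by 0.30 ± 0.16 at 30 min and 0.39 ± 0.16 at 60 min (limma, adjusted p = 0.15 and 0.083). These differences passed in 3 of 11 alternatives at 30 min, which gave 0.19 to 0.57, and in 5 of 11 at 60 min, which gave 0.22 to 0.69.

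The ELAVL3 clone at spot 8746 changed with time in the other direction. It had levels from 6.05 to 6.40 on the 4 arrays of 5 min, from 5.32 to 5.69 at 30 min and from 5.39 to 5.80 at 60 min. The arrays of 5 min did not overlap with the later ones, and the same was true of raw intensity, which was 65.5 to 128 at 5 min, 35.02 to 53.9 at 30 min and 30.7 to 59.6 at 60 min. The median raw intensity of whole arrays was also higher at 5 min (81.8 to 137) than at 30 min (57.3 to 74.1) and 60 min (52.6 to 80.9). The share of all spots without such overlap was not counted, here or for the clones below. Limma called 44.5% of all spots at 30 against 5 min and 36.6% at 60 against 5 min. The level was lower by 0.67 ± 0.15 at 30 min (limma, adjusted p = 0.008) and by 0.53 ± 0.15 at 60 min (limma, adjusted p = 0.024), in 4 of 4 sets each. In the alternatives it stayed lower, between -0.77 and -0.31 at 30 min, and passed the test in 7 of 11 of them, and in 5 of 11 at 60 min. It lost the call with median centring, quantile normalization and cyclic loess at both times. Without the Block + ActD arrays it was -0.58 at 30 min and -0.57 at 60 min (limma, adjusted p = 0.057 and 0.063), and the call at 60 min was also lost without the Block arrays (-0.38; adjusted p = 0.13 by limma) or the BiC/4AP arrays (-0.61; adjusted p = 0.053 by limma). For activity the difference was 0.06 ± 0.12 and for ActD 0.00 ± 0.11 (limma, adjusted p = 0.96 and 1.0). The 95% intervals of both ELAVL3 clones for 60 against 5 min, 0.03 to 0.75 and -0.88 to -0.19, did not overlap.

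CELF4 is a brain protein of the CUGBP and ELAV-like family that binds GU-rich sequences and many synaptic messages. Its 2 spots carry the same accession, although their levels followed each other only loosely over the 12 arrays (Pearson's r 0.41, given as a description). Spot 1007 ranged from 6.30 to 6.82 over the 12 arrays and spot 2013 from 6.38 to 6.75, the smallest ranges of the 11 clones. The spots differed on 1 array by at most 0.30, with an SD of the difference of 0.15, or 0.11 for a single spot. At 5 min spot 2013 read 6.46 in Block, 6.46 in BiC/4AP, 6.42 in Block + ActD and 6.46 in BiC/4AP + ActD. At 30 min it read 6.40, 6.46, 6.47 and 6.54, and at 60 min 6.75, 6.62, 6.38 and 6.63. Spot 1007 gave 6.63, 6.43, 6.39 and 6.37 at 5 min, then 6.55, 6.76, 6.58 and 6.30, and at 60 min 6.61, 6.65, 6.42 and 6.82. Activity moved the spots by 0.03 ± 0.11 and 0.05 ± 0.08 and ActD by -0.13 ± 0.11 and -0.04 ± 0.10, none of which passed the test (limma, adjusted p = 0.95 or above). For spot 2013 the activity interval was -0.14 to 0.24, the narrowest of the 11.

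SLBP binds the stem-loop at the end of the replication-dependent histone messages, which have no poly(A) tail, and is needed for their processing, translation and decay. Its clone at spot 4928 lay at the 98.1st percentile of all spots by mean log2 intensity. Raw intensity was 3446 to 4039 at 5 min, 3852 to 4275 at 30 min and 4382 to 4717 at 60 min, so that on this scale all arrays of 60 min were above all of 5 min. How many of all spots lacked such overlap was not counted. The normalized level of this clone was 11.39 in Block, 11.85 in BiC/4AP, 11.86 in Block + ActD and 12.02 in BiC/4AP + ActD at 5 min. It was 12.34, 12.58, 12.21 and 11.96 at 30 min, and 12.16, 11.84, 11.70 and 12.03 at 60 min. On the normalized scale the arrays of 5 and 60 min overlapped, and the difference of 0.15 ± 0.19 did not pass the test (limma, adjusted p = 0.56). The direction of this difference turned with the scaling, from -0.40 without the dimmest 33.3% of the spots to 0.93 with median centring, and both of these passed the test. Activity gave 0.10 ± 0.13 and ActD -0.06 ± 0.16 (limma, adjusted p = 0.93 and 1.0).

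The other SLBP clone, at spot 5878, was the most variable of the 11, with raw intensities from 40.8 to 212 and normalized levels from 5.61 to 7.57. At 5 min the active cultures were lower, at 6.34 against 7.13 without ActD and at 5.67 against 6.70 with it. At 30 min the active culture was lower without ActD (5.61 against 6.79) and higher with it (7.57 against 6.74), and at 60 min this order was turned round (7.06 against 6.20, and 6.82 against 7.44). Over the 6 pairs the activity difference was -0.32 ± 0.31 (interval -1.04 to 0.40; limma, adjusted p = 0.91). For ActD the interval ran from -0.49 to 1.10. The 2 SLBP clones thus ordered the conditions differently.

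RBMS1, first described as a protein that binds single-stranded DNA, also binds AU-rich stretches of messages and stabilizes some of them. The 3 clones gave 3 different time courses. Spot 1246 had a level at 5 min of 7.16 in Block, 7.66 in BiC/4AP, 7.42 in Block + ActD and 7.65 in BiC/4AP + ActD. At 30 min it read 8.49, 8.62, 8.69 and 8.58, and at 60 min 8.51, 8.38, 8.05 and 8.45. All 8 later arrays lay above all 4 of 5 min, and so they did in raw intensity, which was 185 to 240 at 5 min and 303 to 386 later. The share of all spots without such overlap was not counted, and 44.5% of all spots were called at 30 against 5 min. The rise was 1.12 ± 0.15 log2 units at 30 min (interval 0.80 to 1.45; limma, adjusted p = 0.000677) and 0.88 ± 0.15 at 60 min (interval 0.55 to 1.21; limma, adjusted p = 0.00244). Between 30 and 60 min the level was lower by 0.25 ± 0.15, which did not pass the test (limma, adjusted p = 0.46). The rise from 5 to 30 min passed the test in 11 of 11 alternatives, at 0.78 to 1.396, and that from 5 to 60 min in 11 of 11, at 0.57 to 1.31. In contrast, activity gave 0.17 ± 0.11, higher in 4 of 6 pairs, and ActD 0.00 ± 0.12 (limma, adjusted p = 0.90 and 1.0).

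The RBMS1 clone at spot 3693 had levels at 5 min of 6.51 in Block, 6.64 in BiC/4AP, 6.53 in Block + ActD and 6.34 in BiC/4AP + ActD. Listed in this order, they were 5.95, 6.24, 6.36 and 6.03 at 30 min and 6.10, 6.51, 6.50 and 6.40 at 60 min. It was lower at 30 than at 5 min by 0.36 ± 0.11 in 4 of 4 sets (limma, adjusted p = 0.031), but this call was lost in 11 of 11 alternatives, which gave -0.42 to -0.07. The active culture was higher without ActD at each time (by 0.13, 0.29 and 0.41) and lower with it (by 0.19, 0.34 and 0.10), the reverse of ELAVL3 spot 123. Of the 11 clones, 2 thus had the 3 pairs without ActD and the 3 with ActD in opposite directions, against 2.52% of all spots. This pattern was described from these same values and carries no test, so nothing is read from the count. The other clones of ELAVL3 and RBMS1 did not show it. For spot 3693 the difference between both sets was 0.49 ± 0.17 (limma, adjusted p = 1.0).

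The RBMS1 clone at spot 5418 was the dimmest, at the 12.2nd percentile of all spots, with raw intensities from 11.8 to 63.0. Its level at 5 min was 5.37 in Block, 5.10 in BiC/4AP, 4.94 in Block + ActD and 4.93 in BiC/4AP + ActD. It was 3.95, 4.79, 4.15 and 3.47 at 30 min, and 4.29, 5.16, 3.92 and 4.96 at 60 min. At 60 min both active cultures exceeded both silent ones, by 0.87 without and 1.05 with ActD. This was known when the gene was chosen and is given as a description. The other clones of RBMS1 did not share it, with -0.13 and 0.40 at spot 1246 and 0.41 and -0.10 at spot 3693 (without and with ActD). Nor did spot 5418 itself at the earlier times, with -0.27 and -0.01 at 5 min and 0.84 and -0.68 at 30 min. All 4 arrays of 30 min lay below those of 5 min, by 1.00 ± 0.28 on average (limma, adjusted p = 0.018), a call kept in 8 of 10 alternatives, which gave -1.22 to -0.40, the smallest with the 10th percentile added. It was lost without the Block arrays (-0.85; limma, adjusted p = 0.085) and with median centring (-0.71; limma, adjusted p = 0.062). How many of all spots had no overlap between 5 and 30 min was not counted, and limma called 44.5% of them. The intervals of spots 1246 and 5418 for 30 against 5 min, 0.80 to 1.45 and -1.62 to -0.37, did not overlap.

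Over the 6 pairs matched for time and ActD, none of the 11 clones differed with activity in limma, at an adjusted p or at an unadjusted p under 0.05, and the background was 0% of all spots (498 of 9600 at an unadjusted p under 0.05). This fit includes the 60 min pairs of RBMS1 spot 5418 described above. The median difference was 0.05 over the clones and 0.00 over all spots. ActD over 6 pairs likewise called none of the 11, at either threshold, against 0.0104% of all spots (201 at an unadjusted p under 0.05), with a median of 0.00 in both. The half-width of the 95% interval had a median over all spots of 0.28 for activity and 0.31 for ActD. Whether the activity difference itself changed with ActD was tested as an interaction, which called 0% of all spots and none of the clones by limma, although 2 clones (ELAVL3 spot 123 and RBMS1 spot 3693) and 283 spots had an unadjusted p under 0.05. The changes of the activity difference and of the ActD difference from 5 to 60 min also called 0% of all spots each and none of the clones by limma (165 and 767 spots, and none of the clones, at an unadjusted p under 0.05). The change of the activity difference also includes the 60 min pairs of RBMS1 spot 5418. These were known when the gene was chosen, so nothing is read from it for that clone.

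**Figure D2:**
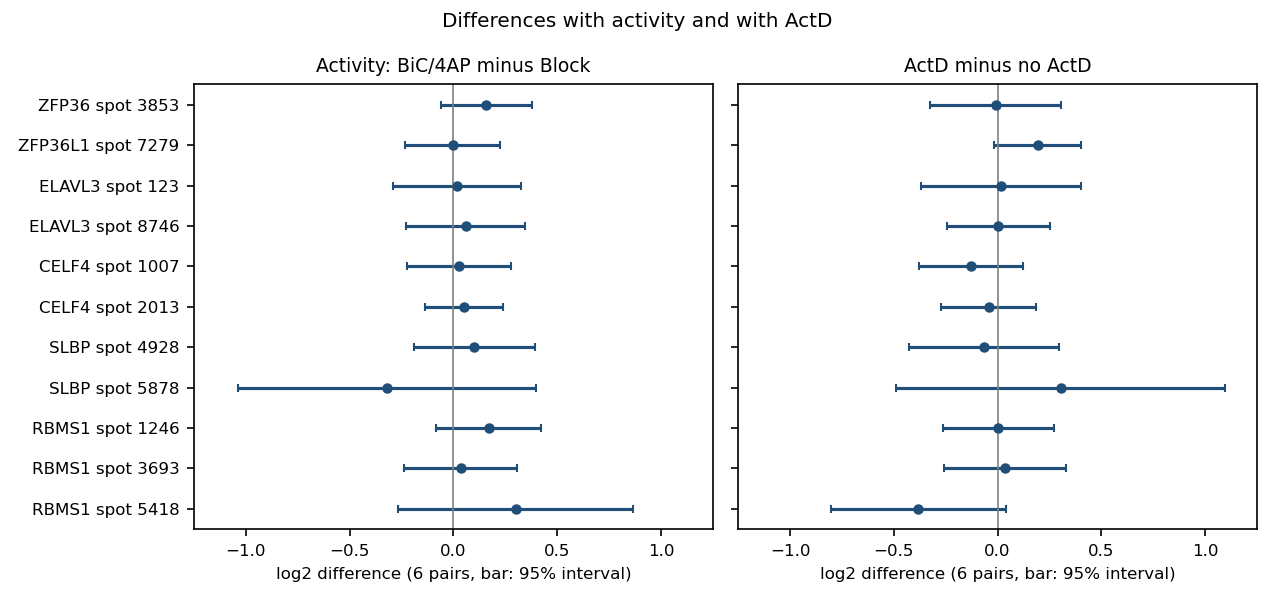
Difference in normalized log2 level of each clone for BiC/4AP minus Block (left) and ActD minus no ActD (right); points are the mean over 6 matched pairs and bars its 95% interval from limma. All intervals include 0, and those of SLBP spot 5878 and RBMS1 spot 5418 are the widest.

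The z-fold, with its limit of 1.4, is named in the study's methods to find clones that changed with activity both without and with ActD. Its formula is not given in the sources used here. It was taken here as the z-score of BiC/4AP minus that of Block, scaled to the SD of this difference across the membrane, which is an assumption. As a plain difference of z-scores, 4, 2 and 3 of all spots and none of the 11 clones counted at 5, 30 and 60 min, against 103, 101 and 89 of all spots with the scaling. A clone counted if both pairs of a time, without ActD and with it, passed 1.4 on the same side. At 5 min none of the 11 clones did, against 1.07% of all spots. SLBP spot 5878 was closest, at -1.37 without and -1.87 with ActD, and counted with quantile normalization, with the 10th percentile of each array added, and without the dimmest 33.3% or the spots not listed. At 30 min again none did, against 1.05% of all spots, and SLBP spot 5878 lay beyond the limit in opposite directions (-2.07 and 1.45). At 60 min 1 of 11 counted, RBMS1 spot 5418 with 1.66 and 1.95 (background 0.927% of all spots). This response was known when the genes were chosen, so nothing is read from the count. The clone counted in the 5 other scalings that held this spot but not as a plain difference. SLBP spot 5878 passed the limit without ActD only (1.65 and -1.15), as RBMS1 spot 5418 did at 30 min (1.48 and -1.20). The remaining 9 clones stayed between -0.66 and 0.86 at every time. These values rest on 1 array per condition and carry no test.

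**Figure D3:**
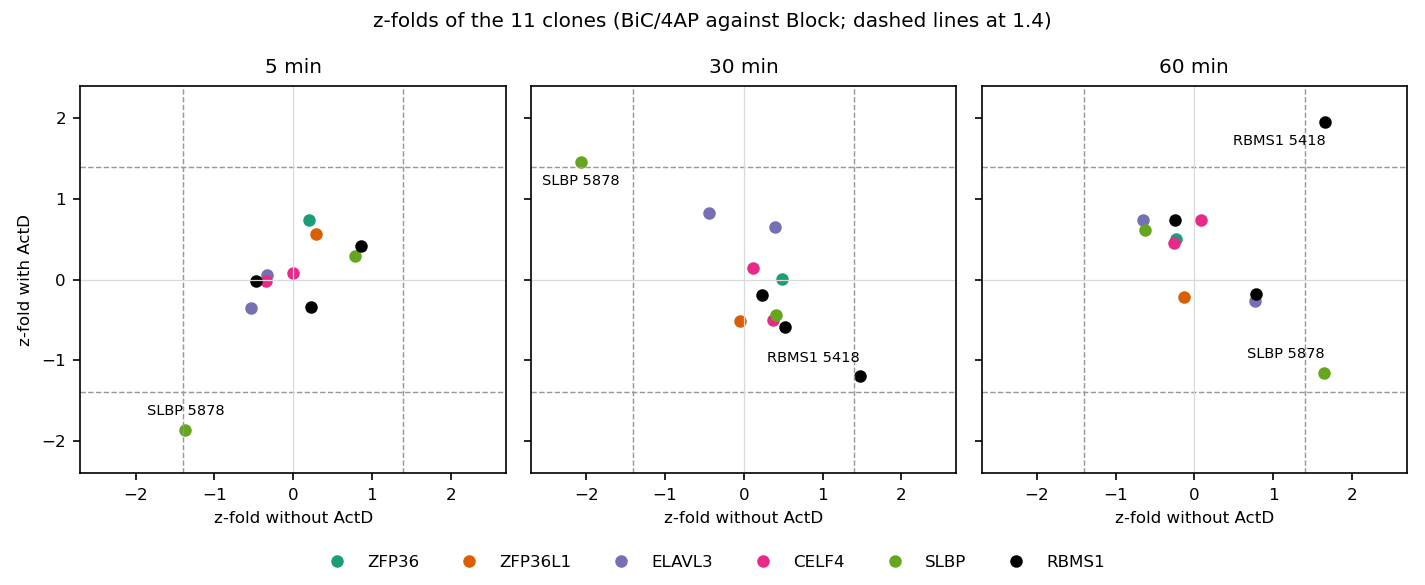
z-fold without ActD (horizontal) against z-fold with ActD (vertical) of each clone at 5, 30 and 60 min, coloured by gene; dashed lines mark 1.4 and -1.4. RBMS1 spot 5418 at 60 min is the only point in a corner where both values pass the limit in 1 direction, and SLBP spot 5878 moves from the lower left to the upper left and then to the lower right.

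Between times, limma over the 4 sets matched for activity and ActD called 4 of 11 clones (36.4%) at 30 against 5 min, 1 higher and 3 lower, where 44.5% of all spots were called. At 60 against 5 min it called 2 of 11 (18.2%), RBMS1 spot 1246 higher and ELAVL3 spot 8746 lower, against 36.6% of all spots. At 60 against 30 min it called none of the clones, also at an unadjusted p under 0.05, against 3.15% of all spots. With these settings the share of clones called was below that of all spots, but at 60 against 5 min it was above it with median centring (7 of 11 clones, 5234 of 9600 spots), with quantile normalization (4 of 11, 2459 of 9600) and without the dimmest 33.3% (4 of 10, 2290 of 6400). The median raw intensity of the arrays was 81.8 to 137 at 5 min, 57.3 to 74.1 at 30 min and 52.6 to 80.9 at 60 min, and the SD of log2 intensity was 2.05 to 2.14, 2.07 to 2.15 and 2.25 to 2.30. The part of these shifts in the time differences was not tested. Median centring gives all arrays the same median and leaves their SD as it is. With it, the median over all spots of the difference from 5 min was 0.29 at 30 min and 0.36 at 60 min.

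**Figure D4:**
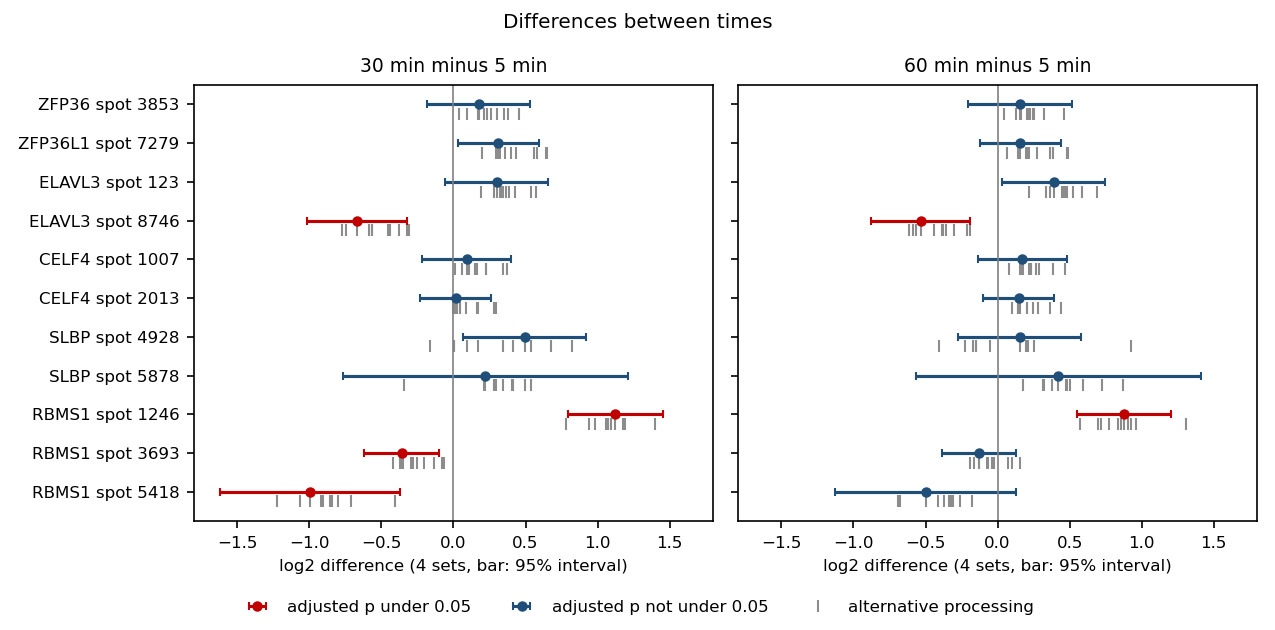
Difference in normalized log2 level of each clone for 30 minus 5 min (left) and 60 minus 5 min (right); points are the mean over 4 matched sets with its 95% interval from limma (red where the adjusted p was under 0.05), and grey ticks the same difference under each processing alternative. All ticks of RBMS1 spot 1246 lie above 0 and all of ELAVL3 spot 8746 below it, whereas those of SLBP spot 4928 lie on both sides at 60 min.

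Other regulators of message life were read from lists of related genes. Processing alternatives are not given for the clones of these lists. Of the destabilizing proteins, 4 genes with 4 clones were measured (HNRNPD, TIA1, ZC3H12A and ZFP36L2), and none passed the test for activity or ActD. HNRNPD, or AUF1, which binds AU-rich elements, was lower by 0.59 ± 0.11 at 30 min and by 0.62 ± 0.11 at 60 min (limma, adjusted p = 0.00311 and 0.00328). ZC3H12A, the endonuclease regnase-1, was lower by 0.54 ± 0.13 and 0.96 ± 0.13 (limma, adjusted p = 0.011 and 0.00104). TIA1 and ZFP36L2 passed at neither time. Of this list 2 of 4 clones were thus called at each time, both lower, and the smallest adjusted p for activity was that of ZC3H12A (-0.17 ± 0.09; limma, adjusted p = 0.90).

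Stabilizing proteins other than ELAVL3 were represented by 10 clones of 6 genes, 6 of which passed at 30 min (3 higher, 3 lower) and 6 at 60 min (4 higher, 2 lower). All 3 clones of PTBP1, which binds pyrimidine-rich stretches, rose, by 0.51 to 0.84 at 30 min and by 0.54 to 0.62 at 60 min. PABPC1, the poly(A)-binding protein, fell by 1.30 and 1.31. MSI2 was lower by 0.40 at 30 min (limma, adjusted p = 0.035) and by 0.35 at 60 min, where it did not pass (limma, adjusted p = 0.066). For YBX1, a cold shock domain protein, 1 clone fell by 1.11 at 30 min and 1.07 at 60 min while another rose by 0.69 at 60 min. None of the 10 passed for activity or ActD, where a YBX1 clone came first with -0.21 ± 0.10 and 0.21 ± 0.13 (limma, adjusted p = 0.90 and 1.0).

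Messages with AU-rich elements, the targets of ZFP36 and the ELAV proteins, were covered by 25 clones of 18 genes. None passed for activity or ActD, and the median difference was 0.00 for activity and 0.04 for ActD. IL6 came first for activity (0.25 ± 0.08; limma, adjusted p = 0.90). FOS, an early gene with a very short-lived message, came first for ActD (-0.64 ± 0.23; limma, adjusted p = 1.0), and its activity difference was 0.02 ± 0.15. At 30 min 10 of the 25 were called. IL6, PLAU, 1 of 2 clones each of MYC, IER3 and NFKBIA, and 1 of 3 of CDKN1A were higher, by 0.61 to 1.12. CXCL1, IL1B, PLAUR and another CDKN1A clone were lower. The clones of these genes that were not called had differences of -0.23 for MYC, -0.32 for IER3, 0.11 for NFKBIA and 0.55 for CDKN1A. At 60 min 12 were called. IL6, PLAU, PTGS2, CXCL8, the same clones of MYC, IER3, NFKBIA and CDKN1A, and 1 of 3 clones of CCND1 were higher, and CXCL1, CXCL2 and the CDKN1A clone that was lower at 30 min were lower. The second clones of MYC and IER3 had differences of -0.27 and -0.29 and were not called. CXCL1 fell by 3.30 ± 0.38 at 30 min and fell by 3.44 ± 0.38 at 60 min (limma, adjusted p = 0.000471 and 0.000431). This clone was dim, at a mean log2 intensity of 4.44, lower than the 4.58 of RBMS1 spot 5418. The RefSeq table of rat genes used here (assembly GRCr8) holds the symbol of each of these genes except CXCL8, whose clone nevertheless had a mean log2 intensity of 6.28, against a median of 6.21 over all spots.

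Replication-dependent histone messages, which SLBP binds, were covered by 11 clones of 11 genes. The labelling was primed with oligo-dT, which copies only the share of such messages that carries a poly(A) tail. None passed for activity or ActD, the first being H3C8 with 0.38 ± 0.20 and -0.57 ± 0.28 (limma, adjusted p = 0.90 and 1.0). At 30 min H2BC4 and H3C10 were higher and H2BC11, H2BC5 and H4C8 lower, which made 5 of 11, and at 60 min H2BC4 was higher and H2BC11, H3C8 and H4C8 lower, 4 of 11. Over these 4 lists, 40% to 60% of the clones were called at 30 min and 36.4% to 60% at 60 min, against the 44.5% and 36.6% of all spots.

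The 2 clones of other genes whose normalized levels followed each member most closely over the 12 arrays were found for the brightest clone of each. RBMS1 spot 1246 was followed by KRT18 and AHDC1 (Pearson's r 0.99 for each), and SLBP spot 4928 by FOXA3 and CDC42 (0.99 for each). ZFP36 was followed by ANKS6 and FAHD2A (0.96 for each), ELAVL3 spot 123 by CTHRC1 (0.93) and DTYMK (0.90), CELF4 spot 1007 by FSD1 (0.90) and HILPDA (0.89), and ZFP36L1 by MARVELD3 and SAMM50 (0.88 for each). FSD1 had a mean log2 intensity of 3.17, below the limit of 3.45 set by the last positions of blocks, and SAMM50 was just above it at 3.58. The other clones named here had 5.16 to 12.19. These are the best of 8493 to 8495 clones searched each time, and all share the same 12 arrays and their scaling.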

How the data were processed

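Labelled cDNA made with oligo-dT and 33P was hybridized to nylon membranes with human cDNA clones. The authors deposited raw spot intensity, read from phosphorimager scans with ImageQuant or ArrayPro, with no normalization; the value table of the series held the same 115200 values. The RNA used per array is given as 3 µg in the labels and 5 µg in the methods. Spots were joined to the platform annotation by spot number; 8517 of 9600 were listed, 8496 with 1 symbol and 21 with several, which were not named. No genome build applies, and no coordinates were used.

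Log2 intensities were z-scored per array, since the study's methods name z-folds without a formula in the sources used here, and returned to log2 units with the mean SD (2.15) and grand mean. Differences were fitted with limma 3.58.1 in R 4.3.3, two-sided, on all spots, with the matched pair or set as a fixed block and Benjamini-Hochberg adjustment over 9600 spots at 0.05. The 12 samples are single arrays per condition, so the tests measure the spread between matched differences across conditions, not between repeated cultures, and their number limits the precision. The fit was tested on simulated data. Alternatives were median centring, quantile normalization, cyclic loess, adding the 10th percentile of each array, leaving out the dimmest 33.3% or the spots not listed, an additive model, each pair or set left out, and, for z-folds, the plain difference.

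The members, the lists and the tests were chosen with earlier results of these data known. All clones of the members are named; the brightest clone of each is compared with other genes; of the lists, clones past the threshold are named, otherwise the one with the smallest p.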

Additional observations from a re-analysis of the deposited data

How the results depend on the processing

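No call for activity or ActD appeared among the 11 clones under any alternative, but several signs turned. For activity, ZFP36L1 gave 0.02 with median centring, 0.00 with quantile normalization and without the spots not listed, 0.01 with the 10th percentile added and 0.05 without the dimmest 33.3%, and SLBP spot 4928 gave -0.06 with quantile normalization and -0.05 with cyclic loess. For ActD, ZFP36 gave 0.02 with quantile normalization, 0.01 without the dimmest 33.3% and 0.00 with the 10th percentile added or without the spots not listed. In the ActD comparison ELAVL3 spot 8746 gave -0.01 with median centring, the 10th percentile added and the dimmest 33.3% left out, and 0.00 (-0.003) without the spots not listed, and ELAVL3 spot 123 gave -0.03 with quantile normalization. The single spot called for ActD was lost (0 spots) with quantile normalization, cyclic loess, the 10th percentile added and the dimmest 33.3% left out, and leaving out 1 pair gave 0 to 1. With 1 pair left out, activity ran from -0.07 to 0.05 for ZFP36L1, from -0.07 to 0.09 and from -0.01 to 0.13 for ELAVL3 spots 123 and 8746, from -0.05 to 0.09 for CELF4 spot 1007 and from -0.04 to 0.11 for RBMS1 spot 3693. ActD ran from -0.11 to 0.08 for ZFP36, from -0.13 to 0.11 and from -0.08 to 0.04 for the ELAVL3 spots, from -0.07 to 0.02 for CELF4 spot 2013, from -0.17 to 0.05 and from -0.03 to 0.50 for SLBP spots 4928 and 5878, and from -0.05 to 0.10 and from -0.04 to 0.10 for RBMS1 spots 1246 and 3693. Between times, SLBP spot 4928 gave -0.16 at 30 min without the dimmest 33.3%, and at 60 min -0.15 with quantile normalization and without the spots not listed, -0.17 with cyclic loess, -0.23 with the 10th percentile added and -0.40 without the dimmest 33.3%. RBMS1 spot 3693 gave 0.16, 0.10 and 0.07 at 60 min with median centring, quantile normalization and cyclic loess. With 1 set left out, SLBP spot 4928 at 60 min ran from -0.05 to 0.26, SLBP spot 5878 at 30 min from -0.34 to 0.53 and CELF4 spot 2013 at 30 min from -0.01 to 0.04. The clones called at 60 against 5 min were 7 of 11 with median centring (5234 of 9600 spots), 4 of 11 with quantile normalization (2459 of 9600) and 4 of 10 without the dimmest 33.3% (2290 of 6400), and 1 to 2 with 1 set left out, against 2 to 4 at 30 min. Over all spots, 60 against 5 min called 2269 with cyclic loess and 2290 without the dimmest 33.3%, and 2028 to 2781 with 1 set left out. At 30 against 5 min leaving out 1 set gave 2431 to 3735, and at 60 against 30 min 0 to 242, where median centring gave 505, the 10th percentile added 535 and the dimmest 33.3% left out 494. For z-folds, 1 clone (SLBP spot 5878) counted at 5 min under each of the 4 alternatives named above, and 0 at 60 min without the dimmest 33.3%, which drops RBMS1 spot 5418, and as a plain difference. Over all spots, the 10th percentile added gave 253 at 5 min and 49 at 60 min, the dimmest 33.3% left out 177, 47 and 14 at 5, 30 and 60 min, the spots not listed left out 63 and 55 at 30 and 60 min, and the plain difference 4, 2 and 3. The cause of these shifts was not tested. RBMS1 spot 5418 is the dimmest of the 11 clones, at the 12.2nd percentile of all spots.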
